A study of Mus musculus with 12 samples.

Results

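Marf1, the gene altered in both mutant lines, and 4 other genes, Bfar, Tmem51, Draxin and Ccdc3, were followed in mouse oocytes because their RNA stood on opposite sides of WT in 2 different Marf1 mutants. Marf1, Bfar and Tmem51 were higher in D272Mut and lower in GTMut than in WT. Draxin and Ccdc3 were lower in D272Mut and higher in GTMut. The 5 genes were found by symbol among 24254 genes of the deposited table, and all of them were among the 12980 genes tested. The 5 genes were chosen by their FPKM in these same 12 libraries, namely the differences of each mutant from WT, so the members' own contrasts are given below as descriptions, with no test.

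The oocytes were fully grown, at the germinal vesicle stage of arrest before meiosis resumes, and came from C57BL/6 mice of 3 weeks that had received 5 IU of PMSG, a hormone preparation for follicle growth, 46 h earlier. D272Mut carried a mutation of Marf1 that the labels name only as D272, GTMut carried a gene trap in Marf1, and WT was the wildtype. Each genotype had 4 libraries, each made from 80 pooled oocytes, and the label descriptions disagree on whether oocytes or whole ovaries were lysed and on the amplification used. The insertion site of the trap, the base change behind D272, the zygosity and the mice behind each library are not stated in the labels, so a p-value speaks of the spread among these libraries only.

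MARF1 is an oocyte protein with an amino-terminal NYN domain, a ribonuclease fold, followed by RNA-binding LOTUS domains, and female mice that lack its function are infertile because their oocytes fail to resume meiosis. It lowers selected transcripts, and in human cells it also meets the decapping machinery that removes the cap of an mRNA before decay. BFAR is a RING-type ubiquitin ligase of the endoplasmic reticulum membrane that can restrain apoptosis. DRAXIN is a secreted axon guidance protein that binds the netrin receptor DCC and antagonises Wnt signalling at LRP6, CCDC3 is a secreted protein best known from fat and endothelial cells, and TMEM51 is a transmembrane protein whose role is little known.

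The label D272 names a numbered residue, and which base triplet it marks depends on the transcript read, so both candidate triplets are shown. Codons were counted from 1 at the start codon of the 2 GENCODE M21 transcripts shown here (GRCm38), with the triplet in capitals and 30 bases on either side. Both triplets encode aspartate, the residue abbreviated D.
Marf1-201, its D272 triplet, chr16:14152038-14152040, minus strand: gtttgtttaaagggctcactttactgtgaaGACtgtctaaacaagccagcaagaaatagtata
Marf1-202, its D272 triplet, chr16:14146085-14146087, minus strand: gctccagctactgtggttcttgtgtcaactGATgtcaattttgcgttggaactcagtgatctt
The triplet of Marf1-201 lies in exon 3 of 27. The triplet of Marf1-202 lies in exon 8 of 11, and the same genomic bases are codon 451 of Marf1-201, because 179 codons upstream are absent from Marf1-202. The labels do not say which transcript the number follows, and the deposited table has 1 value per gene, so neither the mutated base nor the isoforms can be read from it.

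The promoters of 3 genes are shown because their genes lie on both sides of WT in each mutant. The sequences are the RefSeq windows from 250 bases before to 50 bases after the gene start (GRCm38.p6), on the strand of the gene, with GGGCGG and its reverse complement CCGCCC in capitals. The Marf1 window holds the start of Marf1-201 at 14159267, while Marf1-202 starts farther upstream, at 14163351, and its start is outside the window.
Marf1 promoter, chr16:14159225-14159524, minus strand: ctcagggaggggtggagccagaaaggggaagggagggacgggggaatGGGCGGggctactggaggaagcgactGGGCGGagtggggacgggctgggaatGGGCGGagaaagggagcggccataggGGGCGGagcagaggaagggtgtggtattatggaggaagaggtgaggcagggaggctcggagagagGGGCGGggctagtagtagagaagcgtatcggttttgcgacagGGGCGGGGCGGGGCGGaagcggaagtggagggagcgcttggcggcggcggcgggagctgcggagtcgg
Bfar promoter, chr16:13671608-13671907, plus strand: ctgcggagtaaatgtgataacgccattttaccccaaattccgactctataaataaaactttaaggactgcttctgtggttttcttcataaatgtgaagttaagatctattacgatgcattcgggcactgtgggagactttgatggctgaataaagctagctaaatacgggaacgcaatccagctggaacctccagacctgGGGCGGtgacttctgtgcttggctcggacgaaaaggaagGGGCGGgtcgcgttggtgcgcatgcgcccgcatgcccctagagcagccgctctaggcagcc
Draxin promoter, chr4:148130649-148130948, minus strand: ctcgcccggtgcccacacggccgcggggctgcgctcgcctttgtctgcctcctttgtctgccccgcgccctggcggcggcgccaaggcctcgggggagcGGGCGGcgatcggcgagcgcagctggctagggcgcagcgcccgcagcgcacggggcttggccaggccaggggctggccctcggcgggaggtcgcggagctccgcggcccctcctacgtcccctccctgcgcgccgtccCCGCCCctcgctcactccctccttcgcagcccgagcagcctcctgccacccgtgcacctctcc
GGGCGG, counted on both strands and with overlapping matches, occurred 8 times in the Marf1 window, 2 times each in those of Bfar, Draxin and Ccdc3 and 3 times in that of Tmem51. At least 1 match was present in 35.6% of the 32817 promoter windows of the same length. CCAAT occurred once each in the windows of Tmem51 and Ccdc3, against 37.4% of all windows, and TATAAA occurred only in that of Bfar, against 13.6% of all windows. CACGTG, in 7.1% of all windows, and TAATTG, in 8.0%, were in none of the 5. GC content was 68.3% for Marf1, 50.7% for Bfar, 69.7% for Tmem51, 78.0% for Draxin and 66.3% for Ccdc3, against a median of 52.7% over all windows. The observed over expected ratio of CpG dinucleotides lay between 0.52 for Tmem51 and 1.07 for Marf1, and its median over all windows was 0.38. GGGCGG was thus present in the windows of the genes higher in D272Mut and of those higher in GTMut.

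Levels are FPKM, fragments scaled to transcript length and library size, as the authors deposited them, and differences are between mean log2(FPKM + 1) values, with the standard error of a limma fit over all 12 libraries. The added 1 makes the differences smaller for low genes. Relative depth, read from the FPKM that 1 fragment is worth in low genes, was 0.444 to 0.837 in D272Mut, 0.555 to 1 in GTMut and 0.613 to 0.944 in WT. Absolute depth is unknown, so no counting interval can be given. All 13 oocyte markers averaged at least 1 FPKM in each genotype, and their summed level was 9760 to 9860 FPKM in D272Mut, 9880 to 10400 in GTMut and 12100 to 12200 in WT. Gdf9 and Bmp15 make up most of that sum, and under quantile normalization the sign of Gdf9 turned in both mutants, to differences of 0.16 in D272Mut and 0.15 in GTMut, and that of Bmp15 in D272Mut, to 0.14. The oocyte markers differed in direction. Nobox averaged 366, 289 and 193 FPKM and Ddx4 73.0, 79.6 and 11.8 in D272Mut, GTMut and WT. In the same order Kit averaged 34.7, 26.4 and 99.9, Oosp1 357, 279 and 589 and Mos 923, 721 and 834. Of 13 granulosa and cumulus markers 5, 5 and 7 averaged at least 1 FPKM in D272Mut, GTMut and WT, with summed levels of 141 to 144, 147 to 161 and 45.7 to 50.3. Most of that sum was Nr5a2, with 118, 134 and 26.5 FPKM, while Foxl2, a defining granulosa factor, averaged 0.195 FPKM in D272Mut, 0.273 in GTMut and 0.0688 in WT, and Ptx3 was listed at 0 in every D272Mut and WT library. Other granulosa and cumulus markers differed in direction. Kitl averaged 11.6, 11.7 and 2.63 FPKM and Inhba 0.999, 1.79 and 0.111 in D272Mut, GTMut and WT, while Cyp19a1 averaged 6.53, 4.90 and 11.7, Fshr 0.2996, 0.179 and 1.26 and Ptgs2 0.137, 0.0459 and 1.12. The 10 theca and stroma markers summed to 4.11 to 5.82 FPKM in D272Mut, 3.66 to 3.93 in GTMut and 3.18 to 4.38 in WT. The 9 endothelial, immune and blood markers summed to 17.2 to 25.1 FPKM in D272Mut, 13.9 to 15 in GTMut and 22.8 to 26.5 in WT. Within that list Pecam1 averaged 11.7, 11.4 and 20.7 FPKM in D272Mut, GTMut and WT. Lyz2, an immune marker, averaged 5.51, 0.595 and 1.13 FPKM, and its D272Mut libraries ranged from 1.73 to 9.99. Its difference from WT was 1.53 ± 0.34 in D272Mut (adjusted p = 0.00114), and these libraries overlapped those of WT. The part of these shifts in the members' levels was not tested. In pooled oocytes, less RNA per cell and fewer cells of a kind cannot be told apart.

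Marf1 is the gene that both mutant labels name, and since it was also chosen by its level, that level is no independent check of the labels. Its RNA stood at 53.0, 54.5, 52.0 and 53.0 FPKM in the 4 D272Mut libraries. The 4 GTMut libraries had 1.51, 1.30, 1.57 and 1.34 FPKM, and the 4 WT libraries had 26.2, 25.5, 26.4 and 25.0 FPKM. The 3 genotypes formed separate bands with no library between them, and the trapped gene was low in each library labelled as gene trap. Library groups did not overlap for 69.1% of tested genes in D272Mut against WT, 72.9% in GTMut against WT and 37.4% between the mutants. The selection also favours such separation, here and in the other members below, so it is no separate result.

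The mean of Marf1 was 53.1 ± 1.02 FPKM in D272Mut, 1.43 ± 0.130 in GTMut and 25.8 ± 0.625 in WT (SD, n = 4 each). D272Mut therefore had 2.06 times the WT level, a difference of 1.01 ± 0.05 on the log2(FPKM + 1) scale. GTMut had 0.0555 times the WT level, a difference of -3.46 ± 0.05. The GTMut difference depends on the added constant: it was -4.08 with 0.1 in place of 1, and the authors' deposited log2 ratio was -4.13. Between the mutants the difference of Marf1 was 4.48 ± 0.05, D272Mut minus GTMut, and its size ranked 14 among the 12980 genes. Marf1 was above 86.5% of tested genes in D272Mut, above 17.5% in GTMut and above 75.3% in WT. Residual signal in GTMut was not at 0 in any library, and the single value per gene does not show which exons it came from.

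Bfar, the ubiquitin ligase gene, had 97.8, 95.6, 98.5 and 91.4 FPKM in the D272Mut libraries. It had 4.74, 5.40, 6.37 and 5.35 FPKM in the GTMut libraries and 19.7, 18.6, 19.3 and 16.7 FPKM in the WT libraries. Every D272Mut library was far above every WT library, and every GTMut library was below. Mean levels were 95.8 ± 3.18, 5.46 ± 0.673 and 18.6 ± 1.33 FPKM in D272Mut, GTMut and WT (SD, n = 4 each). The log2 differences were 2.31 ± 0.07 for D272Mut minus WT and -1.60 ± 0.07 for GTMut minus WT. Among the 5 genes Bfar had the highest level in D272Mut, above 93.2% of tested genes, and its D272Mut mean was 5.16 times that of WT.

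The table holds a second row on the Bfar locus, 3110001I22Rik, with the same coordinates (chr16:13671856-13703612), and RefSeq lists that name as a synonym of Bfar. This row averaged 73.7 FPKM in D272Mut, 68.5 in GTMut and 105 in WT, so it was lower than WT in both mutants. The sum of both rows was 170 ± 3.8 FPKM in D272Mut, 74.0 ± 4.3 in GTMut and 123 ± 5.8 in WT (SD, n = 4 each). On that sum the log2 differences were 0.46 for D272Mut minus WT and -0.73 for GTMut minus WT, less than those of the Bfar row but with the same signs. The Bfar row made up 55.5% to 57.4% of the sum in D272Mut, 6.4% to 8.3% in GTMut and 14.6% to 15.7% in WT. Reads of one transcript may have been divided between the rows, so the level of Bfar by itself is uncertain.

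**Figure D1:**
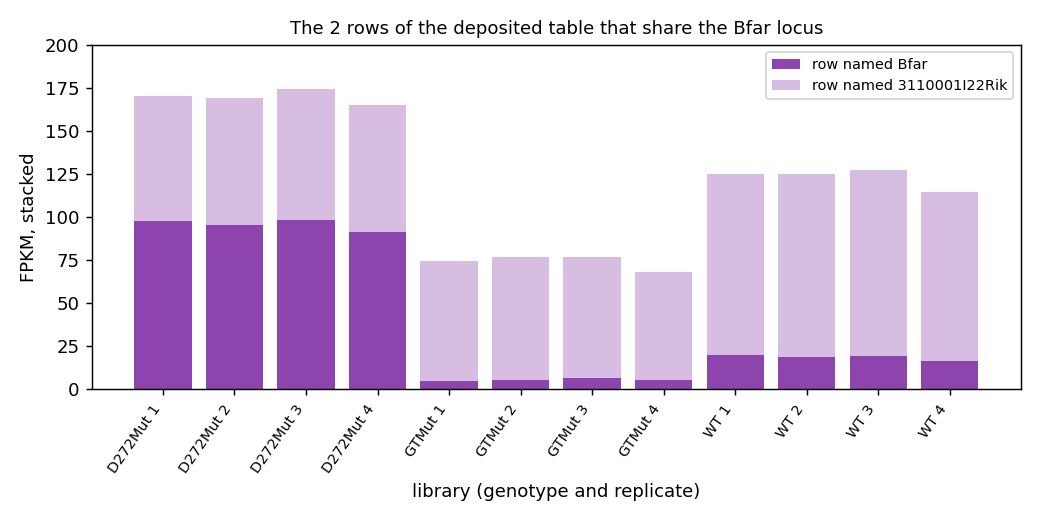
Stacked FPKM of the 2 rows that share the Bfar locus, 1 bar per library (x axis, genotype and replicate). The sum of both rows lies between 164.8 and 174.1 FPKM in D272Mut, between 67.8 and 77.0 in GTMut and between 114.6 and 127.6 in WT. The dark part of each bar is the Bfar row.

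Tmem51, the transmembrane protein gene, had 12.1, 11.5, 9.27 and 11.4 FPKM in the D272Mut libraries. The GTMut libraries had 0.482, 0.236, 0.122 and 0.340 FPKM, and the WT libraries had 3.11, 3.38, 2.59 and 4.58 FPKM. No library of one genotype fell within the range of another. Mean levels were 11.1 ± 1.23, 0.295 ± 0.153 and 3.41 ± 0.842 FPKM in D272Mut, GTMut and WT (SD, n = 4 each). The log2 differences were 1.46 ± 0.14 for D272Mut minus WT and -1.76 ± 0.14 for GTMut minus WT. In GTMut Tmem51 had the largest coefficient of variation of the 5 genes, 51.9%, and was above only 2.6% of tested genes. Every GTMut library was under 1 FPKM, where such a coefficient is uncertain. The gene was tested only because the other genotypes reached 1 FPKM, and the 2.6% is a place among genes that passed that filter. The GTMut difference depends on the added constant, since it was -3.21 with 0.1 in place of 1, and the authors' deposited table gives -3.48.

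Draxin, the secreted guidance protein gene, had 1.11, 0.893, 1.07 and 0.643 FPKM in the D272Mut libraries. The GTMut libraries had 14.3, 15.9, 15.7 and 20.9 FPKM, and the WT libraries had 5.38, 4.18, 5.77 and 5.07 FPKM. The order of the genotypes was the reverse of that of Marf1, again without overlap. Mean levels were 0.930 ± 0.214, 16.7 ± 2.91 and 5.10 ± 0.679 FPKM in D272Mut, GTMut and WT (SD, n = 4 each). The log2 differences were -1.66 ± 0.12 for D272Mut minus WT and 1.53 ± 0.12 for GTMut minus WT. Draxin was 3.28 times the WT level in GTMut and 0.182 times in D272Mut. With 0.1 in place of 1 the D272Mut difference was -2.35, and the authors' deposited table gives -2.39.

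Ccdc3, the other secreted protein gene, had 9.01, 11.2, 8.41 and 10.6 FPKM in the D272Mut libraries. The GTMut libraries had 45.4, 49.2, 41.6 and 46.1 FPKM, and the WT libraries had 20.4, 20.98, 22.8 and 23.5 FPKM. The genotypes again did not overlap, with WT between the mutants. Mean levels were 9.81 ± 1.31, 45.6 ± 3.15 and 21.9 ± 1.45 FPKM in D272Mut, GTMut and WT (SD, n = 4 each). The log2 differences of -1.09 ± 0.08 for D272Mut minus WT and 1.02 ± 0.08 for GTMut minus WT differed less in size than those of the other 4 genes.

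**Figure D2:**
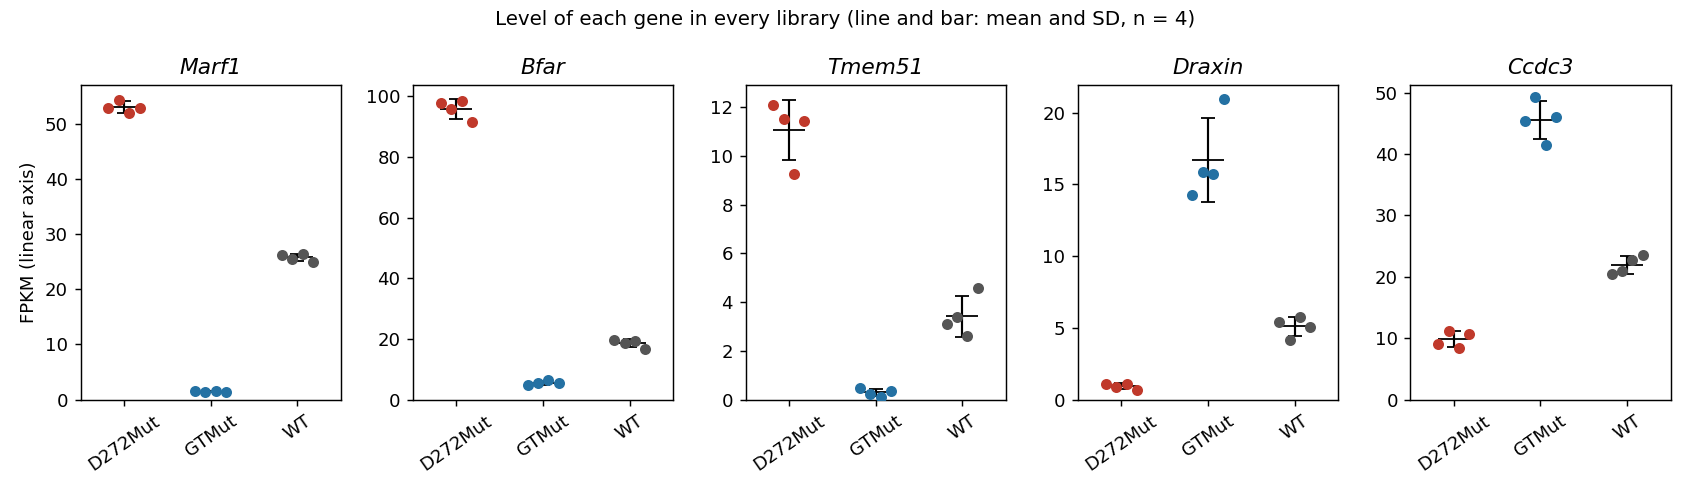
FPKM of the 5 genes in each of the 12 libraries, 1 panel per gene with its own linear y axis and the genotypes along x. Points are libraries, and lines with bars are the mean and SD of 4 libraries. Marf1, Bfar and Tmem51 stand highest in D272Mut and lowest in GTMut, Draxin and Ccdc3 the other way round, with WT between the mutants in every panel.

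The 5 genes are those that passed an adjusted p of 0.05 and a 2-fold difference against WT in opposite directions in the limma fit over all genes. In D272Mut against WT 75.7% of tested genes passed the threshold, in GTMut against WT 77.5%, and in D272Mut against GTMut 39.6%, so a difference from WT was the usual case in these data. Library groups did not overlap for 69.1%, 72.9% and 37.4% of tested genes in the same 3 comparisons. In D272Mut against WT 36.3% of tested genes were higher and 39.5% lower past the threshold, in GTMut against WT 38.3% were higher and 39.2% lower, and in D272Mut against GTMut 19.3% were higher and 20.2% lower. At least 2-fold and past the threshold were 2324 genes higher (17.9%) and 766 lower (5.90%) in D272Mut, and 2508 higher (19.3%) and 1247 lower (9.61%) in GTMut. Between D272Mut and GTMut the shares were 1.55% higher and 1.81% lower. The count that was higher in D272Mut and lower in GTMut at 2-fold was 3 genes (0.0231%), and the count that was lower in D272Mut and higher in GTMut was 2 genes (0.0154%). Without the 2-fold limit these counts were 93 (0.716%) and 89 (0.686%). Leaving out 1 library at a time, the count of 3 ranged from 3 to 8, with 8 without WT replicate 2, and the count of 2 from 1 to 3. Ccdc3 dropped below 2-fold in GTMut, with a lowest difference of 0.99, without GTMut replicate 2 or WT replicate 1. Both comparisons use the same 4 WT libraries, and these counts are what the selection fixed.

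The smaller of the 2 differences against WT was 1.014 for Marf1 and 1.0235 for Ccdc3, just inside the 2-fold limit of 1, and 1.4641 for Tmem51, 1.5312 for Draxin and 1.6013 for the Bfar row. On the sum of the 2 rows of the Bfar locus the differences of 0.46 and -0.73 lie below the limit in both mutants, so Bfar meets it only as a row of its own. Just outside lay 5730507C01Rik with 0.9995, which averaged 29.2 ± 0.783 FPKM in D272Mut and 14.1 ± 1.13 in WT (SD, n = 4 each) and in GTMut was listed at 0 in 1 library and at 0.116, 0.0897 and 0.0996 FPKM in the others. The next were 9130015A21Rik with 0.9856, Cachd1 with 0.9789 and Pnmal1 with 0.9736. Cachd1, which encodes a subunit-like partner of calcium channels, had 26.4, 5.87 and 12.5 FPKM in D272Mut, GTMut and WT, and Pnmal1 had 28.1, 5.69 and 12.1 FPKM. Marf1 and 5730507C01Rik are the nearest genes on either side of the limit. Mir703, a short RNA gene within another locus, was also at least 2-fold higher in D272Mut and 2-fold lower in GTMut but missed the threshold, and it was listed at 0 in 2 GTMut libraries and 1 WT library. The Mir703 differences were 4.77 ± 4.59 in D272Mut and -4.58 ± 4.59 in GTMut (adjusted p = 0.36 and 0.375). Its WT libraries ranged from 0 to 563000 FPKM, so these values are very uncertain.

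**Figure D3:**
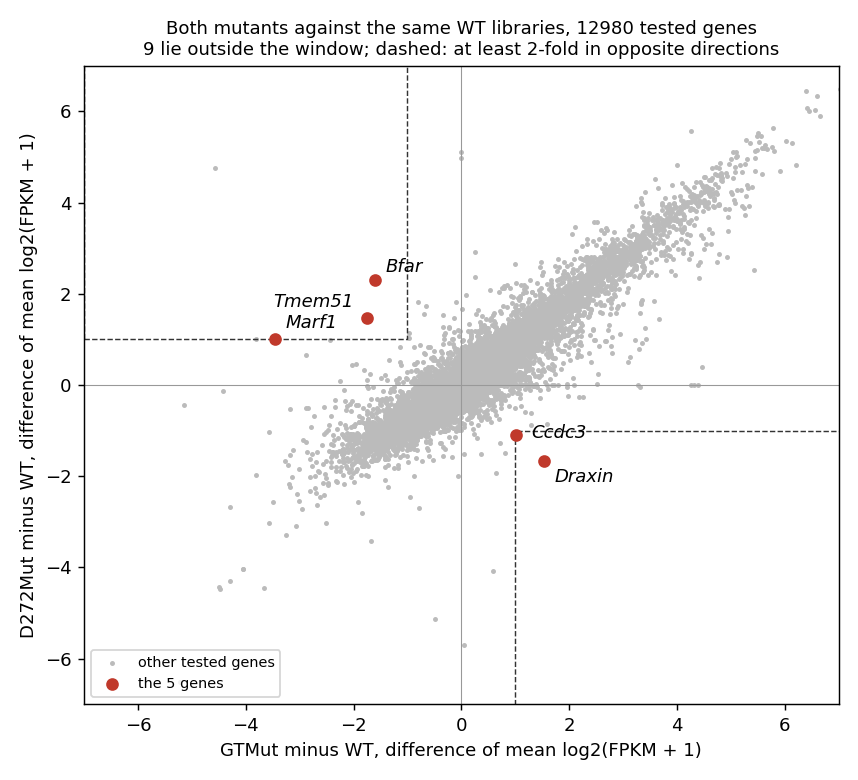
Each point is 1 of 12980 tested genes, with the difference of mean log2(FPKM + 1) of GTMut minus WT along x and of D272Mut minus WT along y, and 9 genes lie outside the window. Both axes share the 4 WT libraries. The red points are the 5 genes, and the dashed boxes hold differences of at least 2-fold in opposite directions, with Marf1, Bfar and Tmem51 in the upper left and Draxin and Ccdc3 in the lower right.

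The genes among the 12980 tested whose log2(FPKM + 1) values were most like each member's were sought over the 12 libraries, which form 3 clusters by genotype, so Pearson's r mostly reflects the order and spacing of the 3 genotypes and is given as a description. For Marf1 they were 5730507C01Rik (r = 0.9989), Cntn2 (0.9937), a cell adhesion gene, and Spry1 (0.9904), a feedback inhibitor of growth factor signalling with 93.3, 41.4 and 74.3 FPKM in D272Mut, GTMut and WT. For Bfar they were Pnmal1 (r = 0.9893), 2700054A10Rik (0.9863) and Fancc (0.9832), a gene of DNA crosslink repair with 24.8, 9.14 and 15.3 FPKM in D272Mut, GTMut and WT. For Tmem51 they were Cachd1 (r = 0.9886), 9330102E08Rik (0.9875) and Pnmal1 (0.9852). For Draxin they were Emc7 (r = 0.9824), a subunit gene of the membrane protein insertion complex of the endoplasmic reticulum, Ccdc3 (0.9814) and Vps9d1 (0.9793). For Ccdc3 they were Mid1 (r = 0.9911), a microtubule-binding ubiquitin ligase gene, Ube2o (0.9869) and Emc7 (0.9822). Emc7 had 13.4 FPKM in D272Mut, 30.1 in GTMut and 21.3 in WT, and Mid1 had 14.5, 38.5 and 25.96 FPKM in D272Mut, GTMut and WT. Pnmal1 was among the 3 most alike for both Bfar and Tmem51, and Emc7 for both Draxin and Ccdc3. The members were chosen for their order of genotypes in these libraries. Likeness between members, and most alike genes that they share, can therefore follow from the selection.

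Marf1 and Bfar lie on the same chromosome, 405.6 kb apart in the deposited loci. In GENCODE M21 (GRCm38) Marf1 spans chr16:14109173-14163351 on the minus strand, with 27 exons in Marf1-201, and Bfar spans chr16:13671858-13703612 on the plus strand, with 8 exons in Bfar-201. Tmem51 (chr4:142030992-142084304, minus strand) and Draxin (chr4:148098437-148130698, minus strand) are 6.01 Mb apart, and Ccdc3 lies on another chromosome (chr2:5137776-5230878, plus strand). The table has 25 other genes within 1 Mb of Marf1, of which 15 were tested, Bfar included.

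The 14 tested neighbours other than Bfar were read against all tested genes, and both comparisons with WT use the same WT libraries. In D272Mut against WT 4 were higher, 7 were lower and 3 did not pass, which is 78.6% past the threshold, against 75.7% of all tested genes. In GTMut against WT 2 were higher, 8 were lower and 4 did not pass, or 71.4%, against 77.5%. Their median log2 differences were -0.33 in D272Mut and -0.30 in GTMut, against -0.05 and -0.02 over all tested genes. Between D272Mut and GTMut 3 passed, Nde1, Mpv17l and Myh11, each higher in D272Mut, or 21.4%, against 39.6% of all tested genes. 3110001I22Rik is among these 14 and shares the Bfar locus.

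Nde1, a dynein regulator gene whose deposited locus begins 3999 bases from that of Marf1, had 14.1, 11.4 and 11.8 FPKM in D272Mut, GTMut and WT. Its difference from WT was 0.23 ± 0.07 in D272Mut (adjusted p = 0.00758) and -0.06 ± 0.07 in GTMut, which did not pass (adjusted p = 0.481). The D272Mut value of Nde1 was -0.02 under quantile normalization. In GENCODE M21 the Nde1 gene starts at 14163275, within the span of Marf1-202 on the other strand but outside that of Marf1-201, so without strand reads of Nde1 and Marf1-202 there cannot be told apart. On the other side 2900011O08Rik had 1.95, 1.61 and 1.33 FPKM in D272Mut, GTMut and WT, a difference of 0.35 ± 0.11 in D272Mut (adjusted p = 0.011) and 0.17 ± 0.11 in GTMut (adjusted p = 0.179).

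Farther out, Myh11, a smooth muscle myosin gene, had 4.95, 3.96 and 12.2 FPKM in D272Mut, GTMut and WT and fell in both mutants, with differences of -1.15 ± 0.07 in D272Mut (adjusted p = 3.93e-09) and -1.41 ± 0.07 in GTMut (adjusted p = 3.3e-10). Rrn3, an initiation factor of RNA polymerase I and the nearest tested gene on one side of Bfar, fell, with differences of -1.27 in D272Mut (adjusted p = 8.47e-10) and -1.44 in GTMut (adjusted p = 1.64e-10). Mpv17l, a gene of a peroxisomal and mitochondrial membrane protein, rose in both, by 1.12 ± 0.11 in D272Mut (adjusted p = 5.39e-07) and 0.65 ± 0.11 in GTMut (adjusted p = 0.000113). Parn, a poly(A) ribonuclease gene 3686 bases from Bfar, fell, with differences of -0.44 in D272Mut and -0.36 in GTMut (adjusted p = 5.74e-05 and 0.000321). Mkl2, Pdxdc1 and Ntan1 also fell in both mutants, and Fopnl rose in both, with differences of 0.37 in D272Mut and 0.24 in GTMut. Pdxdc1 and Ntan1 share 1 deposited locus, so their reads may be divided. Ercc4 had differences of -0.22 in D272Mut (adjusted p = 0.0778) and -0.25 in GTMut (adjusted p = 0.0437), and Abcc1 and A630010A05Rik passed in neither mutant.

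**Figure D4:**
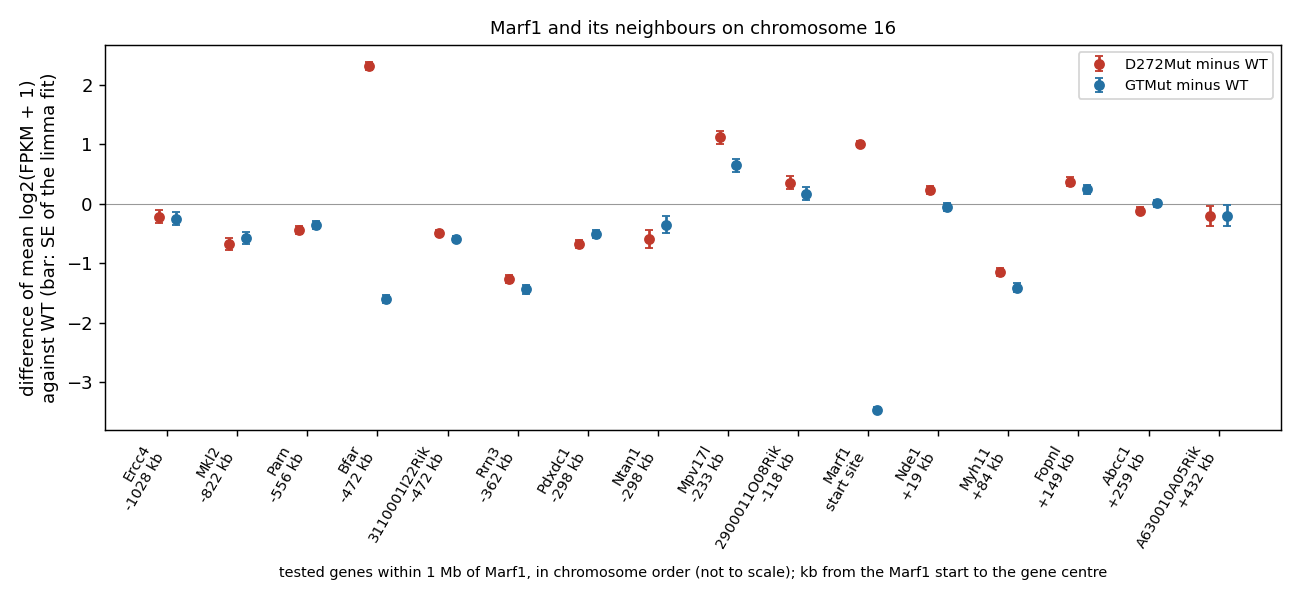
Difference of mean log2(FPKM + 1) against WT (y axis) for Marf1 and the 15 tested genes within 1 Mb, in chromosome order along x with the distance in kb from the Marf1 start to the centre of each gene. Points are D272Mut (red) and GTMut (blue), bars the SE of the limma fit. Marf1 and Bfar stand at 1.01 and 2.31 in D272Mut and at -3.46 and -1.60 in GTMut, and the other genes lie between -1.27 and 1.12 in D272Mut and between -1.44 and 0.65 in GTMut.

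The nearest tested genes beside the other members were read in the same way. Kazn, 14287 bases from Tmem51, fell, with differences of -0.44 in D272Mut (adjusted p = 0.00017) and -0.67 in GTMut (adjusted p = 2.53e-06). 4930455G09Rik, 1996 bases from Tmem51, had differences of -0.58 ± 0.22 in D272Mut (adjusted p = 0.0308) and -0.51 ± 0.22 in GTMut (adjusted p = 0.0519). This gene was low, with 0.562, 0.588 and 1.28 FPKM in D272Mut, GTMut and WT. It was listed at 0 in 1 D272Mut library, and the libraries of each mutant overlapped those of WT. Tmem51os1 overlaps Tmem51 and was listed at 0 in 11 of 12 libraries. Mad2l2, a gene of a spindle checkpoint and translesion synthesis protein whose GENCODE span overlaps that of Draxin on the opposite strand, had 8.80, 9.62 and 18.2 FPKM in D272Mut, GTMut and WT. It fell, with differences of -0.96 in D272Mut (adjusted p = 6.52e-05) and -0.84 in GTMut (adjusted p = 0.000194). Agtrap, on the other side of Draxin, rose by 0.76 ± 0.08 in D272Mut (adjusted p = 1.77e-06) and 0.96 ± 0.08 in GTMut (adjusted p = 1.37e-07). Optn, beside Ccdc3, passed in neither mutant (adjusted p = 0.992 in D272Mut and 0.494 in GTMut), and Camk1d on its other side fell, with differences of -0.22 in D272Mut and -0.50 in GTMut (adjusted p = 0.00864 and 9.06e-06).

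Ppp2cb, which encodes a catalytic subunit of the phosphatase PP2A and is known to be held down by MARF1 in oocytes, had 45.6, 54.7, 48.7 and 46.8 FPKM in the D272Mut libraries. The GTMut libraries had 87.3, 95.5, 92.8 and 93.4 FPKM and the WT libraries 1.47, 0.986, 1.33 and 1.77 FPKM. It rose in both mutants, by 4.39 ± 0.09 in D272Mut (adjusted p = 1.98e-14) and 5.30 ± 0.09 in GTMut (adjusted p = 2.7e-15), and D272Mut was lower than GTMut by a difference of -0.90 ± 0.09 (adjusted p = 3.48e-06). Its locus overlaps that of Ubxn8, and reads of the 2 genes may be divided.

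Partners of MARF1 in the decapping pathway were described beside it. In this list and those that follow, the tested genes named are up to 5 with the smallest p against WT. They are therefore the extremes of each list and do not stand for the whole of it. Of 17 tested members 5 were higher and 8 lower in D272Mut (76.5% past the threshold, median -0.05), and 6 were higher and 9 lower in GTMut (88.2%, median -0.18), against 75.7% and 77.5% of all tested genes with medians of -0.05 and -0.02. Lsm1, of the cytoplasmic ring that binds deadenylated mRNA, rose by 2.66 ± 0.05 in D272Mut and 2.67 ± 0.05 in GTMut (adjusted p = 1.32e-14 and 9.29e-15). Edc3, an enhancer of decapping, had 7.82, 15.3 and 0.580 FPKM in D272Mut, GTMut and WT and rose by 2.47 ± 0.10 and 3.37 ± 0.10 in the mutants (adjusted p = 4.86e-11 and 1.38e-12). Lsm14b, an mRNA storage protein gene, had 398 FPKM in D272Mut, 348 in GTMut and 791 in WT, and fell, with differences of -0.99 in D272Mut and -1.18 in GTMut (adjusted p = 4.93e-12 and 5.92e-13). Lsm14a and Dcp1a, the decapping cofactor, also fell in both. The deposited locus of Dcp1a overlaps those of 3 other genes, so its reads may be divided. Between D272Mut and GTMut 4 of the 17 were higher in D272Mut and 1, Edc3, was lower (29.4%, against 39.6% of all tested genes). Dcp1b and Xrn1, the exonuclease gene, were not tested, with at most 0.544 FPKM on average in any genotype.

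Among partners of BFAR and genes of apoptosis at the endoplasmic reticulum, 8 of 19 were higher and 6 lower in each mutant (73.7% past the threshold in both, against 75.7% and 77.5% of all tested genes; medians -0.01 in D272Mut and 0.04 in GTMut, against -0.05 and -0.02). Mcl1, an antiapoptotic BCL2 relative, had 314 FPKM in D272Mut, 446 in GTMut and 12.6 in WT, and rose by 4.54 ± 0.07 in D272Mut and 5.05 ± 0.07 in GTMut (adjusted p = 2.92e-15 and 8.9e-16). Xbp1, whose protein switches on unfolded protein response genes, rose by 4.26 ± 0.11 in D272Mut and 4.52 ± 0.11 in GTMut (adjusted p = 1.62e-13 and 7.21e-14). Eif2ak3, the kinase PERK, rose by 2.76 ± 0.11 and 2.09 ± 0.11 in D272Mut and GTMut (adjusted p = 2.78e-11 and 4.94e-10). Ern1, the kinase IRE1, fell in both, with differences of -0.51 in D272Mut and -0.85 in GTMut (adjusted p = 1.29e-07 and 4.32e-10), and so did Tmbim6, the BAX inhibitor, with -0.65 and -0.67 (adjusted p = 8.12e-11 and 4.85e-11). With the mutants set against each other, 2 of the 19 were higher in D272Mut than in GTMut and 3 lower (26.3%, against 39.6%).

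Of 10 tested netrins, receptors and their relatives, 5 were higher and 1 lower in D272Mut (60%, against 75.7% of all tested genes), and 5 were higher and 5 lower in GTMut (100%, against 77.5%). Their medians were 0.15 in D272Mut and 0.11 in GTMut, against -0.05 and -0.02. Unc5b, a netrin receptor gene, had 25.3, 17.95 and 0.264 FPKM in D272Mut, GTMut and WT and rose by 4.38 ± 0.07 and 3.91 ± 0.07 in D272Mut and GTMut (adjusted p = 2.9e-15 and 6.21e-15). Unc5a, a receptor of the same family, fell, with differences of -1.18 in D272Mut and -1.22 in GTMut (adjusted p = 8.05e-09 and 4.9e-09). Dcc, the receptor that DRAXIN binds, had 0.746, 1.33 and 0.337 FPKM in D272Mut, GTMut and WT and rose by 0.39 ± 0.10 and 0.80 ± 0.10 (adjusted p = 0.00333 and 5.59e-06). Rgmb, which encodes a neogenin ligand, and Ntn4, a netrin, rose in both mutants. In D272Mut against GTMut 4 of the 10 were higher and 2 were lower (60%, against 39.6%).

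Of 9 tested Wnt co-receptors and antagonists, 4 were higher and 4 lower in D272Mut (88.9%, against 75.7% of all tested genes), and 2 were higher and 5 lower in GTMut (77.8%, against 77.5%). Their medians were -0.42 in D272Mut and -0.51 in GTMut, against -0.05 and -0.02. Lrp6, the co-receptor that DRAXIN can bind, had 9.42, 6.18 and 18.6 FPKM in D272Mut, GTMut and WT and fell, with differences of -0.91 in D272Mut and -1.45 in GTMut (adjusted p = 8.19e-08 and 4.2e-10). Lrp5 and Kremen1, a receptor of Dickkopf proteins, fell in both. Sost, an LRP5 and LRP6 antagonist, rose by 0.57 ± 0.08 in D272Mut and 0.29 ± 0.08 in GTMut (adjusted p = 1.01e-05 and 0.00286). Dkk3 rose by 0.99 ± 0.17 in D272Mut (adjusted p = 9.41e-05), and its GTMut difference was 0.32 ± 0.17 (adjusted p = 0.0971). Between D272Mut and GTMut 5 of the 9 passed (55.6%, against 39.6%), each of them higher in D272Mut.

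Of 13 tested adipokine and fat regulator genes, the setting in which Ccdc3 is known, 2 were higher and 4 lower in D272Mut (46.2%, against 75.7% of all tested genes), and 3 were higher and 4 lower in GTMut (53.8%, against 77.5%). Their medians were 0.13 in D272Mut and 0.08 in GTMut, against -0.05 and -0.02. Plin2, a lipid droplet coat gene, had 3.06 FPKM in D272Mut, 10.5 in GTMut and 2.92 in WT, and rose by 1.55 ± 0.11 in GTMut (adjusted p = 1.85e-08), while its D272Mut difference was 0.06 ± 0.11 (adjusted p = 0.66). The D272Mut minus GTMut difference of Plin2 was -1.49 ± 0.11 (adjusted p = 3.92e-07). Fasn, the fatty acid synthase, rose by 0.82 ± 0.07 in GTMut (adjusted p = 1.75e-07) and 0.19 ± 0.07 in D272Mut (adjusted p = 0.0295), and the D272Mut value was -0.15 under quantile normalization. Cebpb, a transcription factor of fat cell differentiation, and the lipase genes Pnpla2 and Lipe fell in both mutants. In D272Mut against GTMut 1 of the 13 was higher and 4 were lower (38.5%, against 39.6%).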

How the data were processed

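RNA from 12 oocyte libraries, 4 per genotype, was sequenced as 150 bp paired reads. As the design text and the submitters' processing notes have it, the authors aligned reads to mm10 with TopHat2 2.0.13 and computed the deposited FPKM values with Cufflinks 2.2.1. The cuffdiff columns of the authors (log2 ratios, p-values and q-values) served only for comparison. The header names no first column, so columns were read by position, and 1 line without content was left out. The labels do not say whether counting used strand. The deposited loci of Unc5a, Ntn4, Lipe, Camk1d, Kremen1, Pdgfra, 2900011O08Rik, Fancc, Vps9d1, Mid1 and 2700054A10Rik also overlap those of other genes. Their reads may be divided too.

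Genes reaching 1 FPKM in any library were fitted as log2(FPKM + 1) in limma 3.58.1 (R 4.3.3; all 12 libraries, 9 residual degrees of freedom, intensity trend), with two-sided tests and Benjamini-Hochberg adjustment over 12980 genes. The fit was also run on simulated data in which few genes changed and none of the changed genes was low. These data differ on both points, so that run does not bear on the calls given here. Relative depth came from genes under 0.3 FPKM in 66 library pairs, of which 24.4% lay at the modal ratio. Figures used matplotlib 3.10.9 and Python 3.11.15. Sequences came from RefSeq and GENCODE M21, and proteins were not used here.

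The members and lists were chosen with earlier results of these data known. Besides the members, 59 named genes carry tests: tested genes within 1 Mb of Marf1, the nearest tested genes beside other members, up to 5 genes per list with the smallest p, the 3 most abundant markers per list, Ppp2cb and Mir703. A further 13, given with no test, are the 4 genes just outside the 2-fold limit and the 3 most alike per member. Foxl2, Ptx3, Inhba, Fshr, Ptgs2, Nobox, Ddx4, Kit, Oosp1, Tmem51os1, Mir703, Dcp1b and Xrn1 were chosen after their values were seen. Alternatives changed the pseudocount, filter, scaling, variance trend, genotypes in the fit, replicate block and libraries.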

Additional observations from a re-analysis of the deposited data

Results flagged for a closer look

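In 231 groups of 4 libraries, over 77 genes, the 5 members included, the sample farthest from the other libraries of its genotype was compared with the range of the group, and 15 samples stood apart, against about 1 in 20 groups by chance. None of the 5 genes had such a library. In D272Mut replicate 1, Abcc1 was 4.83 FPKM (other libraries 5.34 to 5.36), Mpv17l 3.52 (4.21 to 4.33), Tmbim6 159 (168 to 170), Ube2o 26.9 (28.2 to 28.4) and Pdgfra 0.714 (0.900 to 0.924), all low. That library was also the shallowest, with a relative depth of 0.444. Among the other D272Mut libraries, 2900011O08Rik was low in replicate 2 at 1.79 FPKM (others 2.01), Lsm14a was high in replicate 3 at 177 (162 to 164) and Cyp19a1 was low in replicate 4 at 5.39 (6.77 to 7.02). In GTMut replicate 3 Pecam1 was low at 10.9 FPKM (11.6 to 11.7), and in GTMut replicate 4 2700054A10Rik was high at 9.37 (8.19 to 8.33) and 9130015A21Rik at 0.353, with the others listed at 0. Among WT libraries, Camk1d was high in replicate 2 at 11.3 FPKM (10.1 to 10.2), as was Unc5b at 0.421 (0.188 to 0.225). Mcl1 was high in WT replicate 3 at 15.3 FPKM (11.5 to 12), and Kitl was low in WT replicate 4 at 1.95 (2.78 to 2.94).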

How the results depend on the processing

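The differences of the 5 genes kept their signs in all 297 alternative values, and 22 of them moved by more than 1 SD. The alternatives reuse the libraries by which the 5 genes were chosen. Their kept signs, and their place in the counts below, therefore follow largely from the selection and are no independent support. The count higher in D272Mut and lower in GTMut was 5 with median-ratio rescaling, 10 with a pseudocount of 0.1 and 6 with the authors' deposited log2 ratios and q-values, an alternative added after seeing the data, and 3 to 8 without 1 library each, with 8 when WT replicate 2 was left out and 5 without D272Mut replicate 1, D272Mut replicate 4 or GTMut replicate 4. The count lower in D272Mut and higher in GTMut was 5 with a pseudocount of 0.1 and 1 to 3 without 1 library each, with 1, Draxin, without GTMut replicate 2 or WT replicate 1. All 5 genes remained in these counts except Marf1 and Ccdc3 under quantile normalization (0.88 in D272Mut and 0.85 in GTMut), Tmem51 under a mean FPKM of at least 5, where it was not tested, and Ccdc3 without those 2 libraries. Quantile normalization moved the median of all genes to -0.25 in D272Mut and -0.23 in GTMut, and the share of higher calls to 37.4% and 39.2%, against 47.9% and 49.4%. It reversed Nde1 (-0.02) and Fasn (-0.15) in D272Mut, Gdf9 (0.16 in D272Mut and 0.15 in GTMut), Bmp15 in D272Mut (0.14) and Mos in GTMut (0.21), and the cause was not tested. Without 1 library each, calls numbered 9517 to 9804 in D272Mut, 9773 to 10102 in GTMut and 4524 to 5094 between the mutants, and 11 to 12 and 8 to 10 among neighbours in D272Mut and GTMut. Libraries with the same replicate number did not deviate together (correlations -0.36 to 0.09), so the numbers do not pair them. Between genotypes, pairs of different number had correlations of -0.18 to 0.36, with 9 of 36 over 0.1, and the cause was not tested. The replicate block gave 9771, 10007 and 4931 calls in D272Mut, in GTMut and between the mutants. It gave 11 and 9 neighbours, and 3 and 2 genes in the opposite counts. Of 3486 alternative values of the 59 named genes with a test 3375 kept their call, and also their direction where the main result had passed. For results that had not passed the direction was not checked. Of their 177 results 44 had another call or a reversed direction under at least 1 alternative. Of 777 values of the 13 genes near the 2-fold limit or most alike 39 moved by more than 1 SD and none changed sign. Absolute depth is unknown, and Tmem51 in GTMut and Draxin in D272Mut lie near or under 1 FPKM.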
